A study of Mus musculus with 5 samples.

Results

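Lineage transcription factor genes of invariant natural killer T (iNKT) cells, namely Zbtb16, Tbx21, Id2, Id3, Runx3, Runx1, Gata3, Eomes, Zbtb7b and Rora, were described in 5 libraries of iNKT cells from mouse liver. They were chosen by name as 10 of the 55364 genes with a row in the tables, and each had exactly 1 row. All animals were wild-type male C57BL/6 mice. The healthy group comprised 2 libraries from mice given PBS. The hepatocellular carcinoma (HCC) group comprised 3 libraries from mice given a single intraperitoneal injection of diethylnitrosamine (DEN), a chemical carcinogen that forms DNA adducts in the liver, at 25 mg/kg and 15 days of age. The protocol gives an age of 38 to 42 weeks at collection. Cells were sorted as positive for both the T cell receptor beta chain and a CD1d tetramer that carried PBS57, a lipid antigen, so each library is a bulk of sorted liver cells. Fewer cells of an iNKT subset and less RNA per cell of that subset cannot be told apart in such libraries.

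iNKT cells carry a semi-invariant T cell receptor that recognises lipids on CD1d, and they leave the thymus with an effector program already in place. PLZF, the product of Zbtb16, directs that program. T-bet, the product of Tbx21, marks the interferon-producing NKT1 subset, which is the main subset of mouse liver, whereas GATA3 is prominent in the NKT2 subset, and the NKT17 subset makes IL-17. Mature NKT1 cells are known to hold less PLZF than NKT2 cells. Id2 and Id3 bind E proteins and keep them off DNA, RUNX1 acts at the double-positive thymocyte stage, RUNX3 acts in cytotoxic and interferon-producing lymphocytes, and ThPOK, the product of Zbtb7b, acts in the CD4 lineage.

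The values are deposited as whole numbers, but their low values fall on regular steps, 1 step for each read, so they are treated here as read counts that were scaled to a common level and rounded. From the steps, an estimated 837862 and 2400347 reads lie behind healthy 1 and 2, and 2601066, 3903798 and 1352170 behind HCC 1, 2 and 3. These depths are estimates and are least firm for HCC 1 and HCC 2. Levels are given as CPM, the deposited value per 1000000 of the total of its table. This 3' tag assay is designed to give 1 tag per transcript whatever its length, so CPM of different genes were compared without a length correction. Other differences between genes in the yield of tags were not corrected, so levels compared between genes are levels of tags. A value of 0 leaves room for 3 reads, which equal 3.58 CPM in healthy 1, 1.25 in healthy 2, and 1.15, 0.768 and 2.22 CPM across HCC 1 to 3. The label of the cells was compared with markers. Genes of the T cell receptor and CD3 complex, which other T cells share, summed to 3169 to 4448 CPM per library. That sum does not tell iNKT cells from other T cells. Trav11, the variable segment of the invariant alpha chain, was at 0 in 4 of the 5 libraries. Traj18, its joining segment, ranged from 0 to 48.3 CPM. Both segments lie upstream of the constant segment, where the 3' end of the transcript is, so 3' tags of these 2 do not check the label. Healthy 1, the shallowest library, also stood somewhat apart, with correlations of log2 values of 0.786 to 0.833 with the others, where pairs of the others reached 0.913.

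Id2 led the factors and Eomes closed the order in these cells. Mean levels over the 5 libraries were 1755 CPM for Id2, 332 for Tbx21, 54.4 for Gata3, 37.2 for Runx3, 28.1 for Rora, 20.7 for Zbtb7b, 20.2 for Runx1, 4.15 for Id3, 1.05 for Zbtb16 and 0.109 for Eomes. The order Id2 above Tbx21 above Gata3 held in 5 of 5 libraries without overlap of their ranges, and so did Runx1 above Id3. Between these steps, neighbours in the order did not differ beyond their spread. Gata3 exceeded Runx3 in 4 of 5 libraries, Runx3 exceeded Rora in 3, Rora exceeded Zbtb7b in 3 and Zbtb7b exceeded Runx1 in 2, and the ranges of each of these pairs overlapped. Id3 exceeded Zbtb16 in 4 of 5 libraries, and Zbtb16 exceeded Eomes in 4, again with overlapping ranges. Id2 alone made up 78.9 to 80.9% of the summed level of the 10 factors in 4 libraries and 63.6% in healthy 1.

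**Figure D1:**
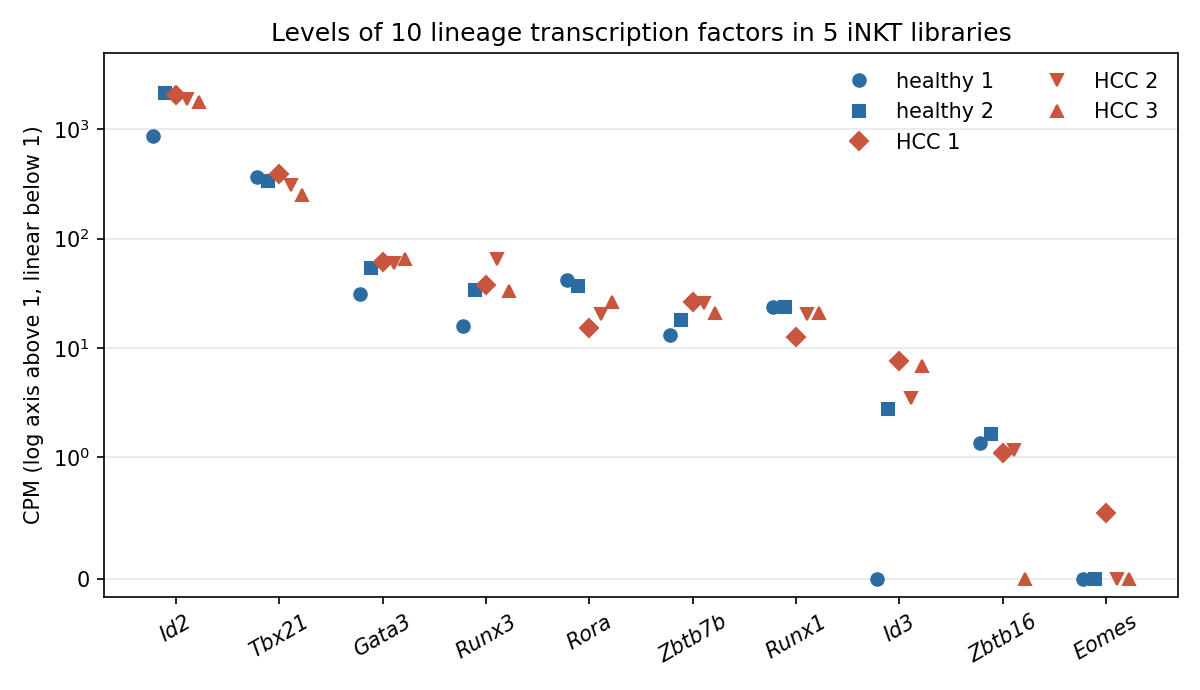
Level of each factor (CPM, on a log axis above 1 and a linear one below) in every library, ordered by mean level, with healthy libraries in blue and HCC libraries in red. Id2 and Tbx21 stand above the other factors in every library, 5 factors from Gata3 to Runx1 fill the middle, and Id3, Zbtb16 and Eomes lie lowest, each with at least 1 library at 0.

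Among the Id proteins, Id2 (chr12:25093799-25097140 on GRCm38, minus strand) was abundant and Id3 (chr4:136143497-136145755, plus strand) scarce. Id2 stood at 869 CPM in healthy 1 and 2152 CPM in healthy 2, and at 2080, 1891 and 1783 CPM across HCC 1 to 3. Healthy 1 was the low library, and healthy 2 was the highest of all, so the groups overlapped. Within the genome, Id2 ranked between 97th and 203rd of all genes by level in each library. Id3 stood at 0 CPM in healthy 1 and 2.74 CPM in healthy 2, and at 7.62, 3.49 and 6.90 CPM across HCC 1 to 3, on 48 to 50 reads in all. All HCC values exceeded both healthy values, but the counting interval of healthy 2 (95%, exact Poisson, 0.917 to 6.01 CPM) overlapped those of all HCC libraries (4.70 to 11.9, 1.77 to 6.02 and 3.04 to 12.6 CPM). Such intervals cover counting error only. Id2 exceeded Id3 by 784-fold in healthy 2 and by 273-, 542- and 258-fold in HCC 1, 2 and 3, and by at least 243-fold in healthy 1, where Id3 was set to 3 reads. With healthy 1 at its bound, the groups overlapped in this ratio.

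The 250 bases upstream of the RefSeq start of each Id gene (GRCm38.p6, written 5′ to 3′ on the gene's strand) are shown because these sister genes stood far apart in level in every library. Capitals mark E boxes (CANNTG), which E proteins bind, and GC boxes (GGGCGG), searched on both strands with overlapping matches kept. The first sequence spans chr12:25096093-25096342 on the minus strand and the second chr4:136143572-136143821 on the plus strand. Both windows lie inside the gene spans given above, which come from GENCODE M21 and start further upstream than RefSeq.
Id2 promoter: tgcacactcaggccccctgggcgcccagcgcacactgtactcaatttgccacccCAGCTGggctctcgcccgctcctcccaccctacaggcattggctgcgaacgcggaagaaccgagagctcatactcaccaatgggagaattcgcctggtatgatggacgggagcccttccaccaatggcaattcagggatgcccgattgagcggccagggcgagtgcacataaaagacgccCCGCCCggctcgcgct
Id3 promoter: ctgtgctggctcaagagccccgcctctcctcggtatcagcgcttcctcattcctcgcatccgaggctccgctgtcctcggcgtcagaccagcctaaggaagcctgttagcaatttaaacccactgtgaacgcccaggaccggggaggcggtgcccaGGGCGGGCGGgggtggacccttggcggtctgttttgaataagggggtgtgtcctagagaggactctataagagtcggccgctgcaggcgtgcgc
Both windows are 62.8% G and C. The Id2 window holds 1 E box and 1 GC box, and the Id3 window holds 0 E boxes and 2 overlapping GC boxes. Of 32851 promoter windows of this length in the table, 66.2% hold an E box and 32.7% a GC box, so neither motif is rare.

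The E proteins and other Id proteins were low beside Id2. Tcf12, which encodes the E protein HEB, stood at 12.1 and 24.2 CPM in the healthy libraries, against 22.3, 23.9 and 9.55 CPM in HCC. Id4, another Id protein, stood at 23.8 CPM in healthy 1 and between 2.18 and 4.07 CPM in the other 4 libraries. Id1 was listed at 0 in all 5. Of the 5 listed genes 2 were tested between groups and 0 passed in either direction.

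Of the T-box factors, Tbx21 (chr11:97098071-97115331, minus strand) was high and steady, and Eomes (chr9:118478212-118486132, plus strand) was at or next to 0. Tbx21 stood at 370 CPM in healthy 1 and 336 CPM in healthy 2, and at 391, 311 and 249 CPM across HCC 1 to 3. The groups overlapped, with HCC 1 the highest library and HCC 3 the lowest. Its coefficient of variation over the 5 libraries was 16.7%, the smallest of the 10 factors, with 4.30% given by counting alone. Eomes, the sister factor that marks memory CD8 T cells and NK cells, was listed at 0 in 4 libraries and at 0.544 CPM in HCC 1, a total of 1 to 3 reads. With Eomes set to 3 reads, Tbx21 exceeded it by at least 103- and 269-fold in healthy 1 and 2 and by at least 339-, 404- and 112-fold in HCC 1, 2 and 3. These bounds follow the depth of each library, so nothing about the groups is read from them. On the list for NK and ILC1 cells, Ncr1, a defining receptor of NK cells, and Klra4 were at 0 in every library, and the other 5 genes were detected in every library, from a mean of 2.69 CPM for Klra8 to 41.5 CPM for Itga1.

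Of the 16 listed genes known to be driven by T-bet or EOMES, 4 had a mean level above that of Tbx21 and 12 a lower one, down to 14.8 CPM for Il12rb2, which encodes a chain of the IL-12 receptor. Ccl5, which encodes a chemokine, stood at 1012 and 950 CPM in the healthy libraries, against 1151, 1185 and 876 CPM in HCC. Il2rb, which encodes the beta chain of the IL-15 receptor, stood at 649 and 983 CPM against 946, 1238 and 909 CPM. In both genes the groups overlapped. All 16 listed targets were tested and 0 passed in either direction. Of these, 12 had a positive log2 fold change in HCC, and so did 4562 of all 8647 genes tested. The median log2 fold change of the 16 was 0.22, beside 0.05 over all genes tested.

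Gata3 and Rora, which encodes the nuclear receptor RORα, were both detected in every library. Gata3 (chr2:9857078-9890034, minus strand) stood at 31.0 CPM in healthy 1 and 54.3 CPM in healthy 2, and at 60.9, 59.9 and 65.8 CPM across HCC 1 to 3. The 3 HCC libraries lay close together and above both healthy libraries, but the counting interval of healthy 2 (45.2 to 64.8 CPM) covered 2 of the 3 HCC values. Rora (chr9:68653786-69388246, plus strand) stood at 41.8 CPM in healthy 1 and 36.8 CPM in healthy 2, and at 15.2, 20.4 and 26.5 CPM across HCC 1 to 3. The HCC libraries lay below both healthy ones, and the healthy mean was 39.3 ± 3.56 CPM (SD, n = 2) against 20.7 ± 5.66 CPM (SD, n = 3) in HCC. The counting intervals of HCC 1 (10.7 to 20.9 CPM) and HCC 2 (16.0 to 25.5 CPM) lay under those of both healthy libraries (29.1 to 58.1 and 29.4 to 45.2 CPM), whereas that of HCC 3 (18.6 to 36.9 CPM) overlapped them.

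Of the 10 listed GATA3-associated genes 5 were detected in every library, and 5 of the 9 listed NKT17-associated genes were at 0 in every library. From the GATA3-associated list, Il4ra, the IL-4 receptor alpha chain, stood at 85.9 and 134 CPM in the healthy libraries, against 141, 182 and 152 CPM in HCC. Icos, a costimulatory receptor, stood at 29.7 and 80.1 CPM against 71.3, 76.2 and 48.8 CPM. Of this list 5 genes were tested and 0 passed in either direction, and Il5 and Il1rl1 were at 0 in all libraries. On the NKT17-associated list, Nr1d2, a nuclear receptor of the circadian clock that shares binding sites with RORα, stood at 12.1 and 21.4 CPM in the healthy libraries, against 31.0, 32.0 and 19.1 CPM in HCC. Nr1d1, its relative, stood between 0 and 3.60 CPM. The NKT17 genes Il17a, Il17f, Il23r, Ccr6 and Il1r1 were at 0 in every library. Of the 9 listed genes 1 was tested and 0 passed.

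Runx3 exceeded Runx1 in 4 of the 5 libraries, all but healthy 1. Runx3 (chr4:135120652-135177990, plus strand) stood at 15.7 CPM in healthy 1 and 34.0 CPM in healthy 2, and at 37.5, 65.2 and 33.4 CPM across HCC 1 to 3. HCC 2 was the high library and healthy 1 the low one, and HCC 3 and healthy 2 nearly coincided, so the groups overlapped in CPM. Runx1 (chr16:92601466-92826149, minus strand) stood at 23.8 and 23.6 CPM in the healthy libraries, against 12.5, 20.4 and 20.7 CPM in HCC. Both healthy libraries were above all HCC ones, but the gap was small and the counting interval of healthy 1 ran from 14.6 to 36.9 CPM. The ratio of Runx3 to Runx1, which does not depend on scaling, was 0.66 and 1.44 in healthy 1 and 2 and 3.00, 3.20 and 1.62 in HCC 1, 2 and 3. All HCC ratios exceeded both healthy ratios. The difference was 1.35 on the log2 scale, with a two-sided exact permutation p of 0.2, the smallest that 10 arrangements of 2 and 3 libraries can give, and an adjusted p of 0.667 over 5 ratios.

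Runx3 has a distal and a proximal start, and a 3' tag does not tell which one was used. The 250 bases before each RefSeq start are shown because the distal window holds copies of the core RUNX motif TGTGGT, the site such factors bind. Capitals mark that motif on either strand, counted with overlaps. The distal window spans chr4:135120395-135120644 and the proximal one chr4:135152295-135152544, both on the plus strand.
Runx3 distal promoter: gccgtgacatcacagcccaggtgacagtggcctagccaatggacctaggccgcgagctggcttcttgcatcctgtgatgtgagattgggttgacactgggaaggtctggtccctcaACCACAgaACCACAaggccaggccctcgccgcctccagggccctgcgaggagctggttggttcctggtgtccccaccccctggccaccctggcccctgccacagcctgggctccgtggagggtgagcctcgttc
Runx3 proximal promoter: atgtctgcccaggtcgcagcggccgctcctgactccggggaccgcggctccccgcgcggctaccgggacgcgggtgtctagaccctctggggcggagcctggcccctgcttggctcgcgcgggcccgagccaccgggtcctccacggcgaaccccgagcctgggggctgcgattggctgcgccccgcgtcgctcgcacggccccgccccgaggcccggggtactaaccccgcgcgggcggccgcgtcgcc
The distal window holds 2 matches and the proximal window 0. Of the 32851 windows, 14.0% hold at least 1 match and 1.27% at least 2. Matching letters describe the window and do not show binding.

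ThPOK is the factor that opposes RUNX3 in the choice between CD4 and CD8 lineages. Its gene, Zbtb7b (chr3:89377644-89394776, minus strand), stood at 13.0 CPM in healthy 1 and 18.1 CPM in healthy 2, and at 26.1, 25.6 and 20.7 CPM across HCC 1 to 3. All HCC libraries were above both healthy ones, with overlapping counting intervals, such as 13.0 to 24.6 CPM in healthy 2 and 13.8 to 29.9 CPM in HCC 3. Of its last 300 transcript bases, 6.19% of the 31-base words also occur in the pseudogene Gm18856, and an antisense gene, Gm15417, overlaps it with deposited values of 0 to 18 per library. The ratio of Runx3 to Zbtb7b was 1.21 and 1.88 in the healthy libraries and 1.44, 2.55 and 1.62 in HCC, and the groups overlapped. Cd4 stood at 54.8 and 49.4 CPM in the healthy libraries, against 43.0, 71.0 and 49.4 CPM in HCC, and Cd8a between 0 and 8.54 CPM in the 5 libraries. Of the 3 listed co-receptor genes 1 was tested and 0 passed.

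**Figure D2:**
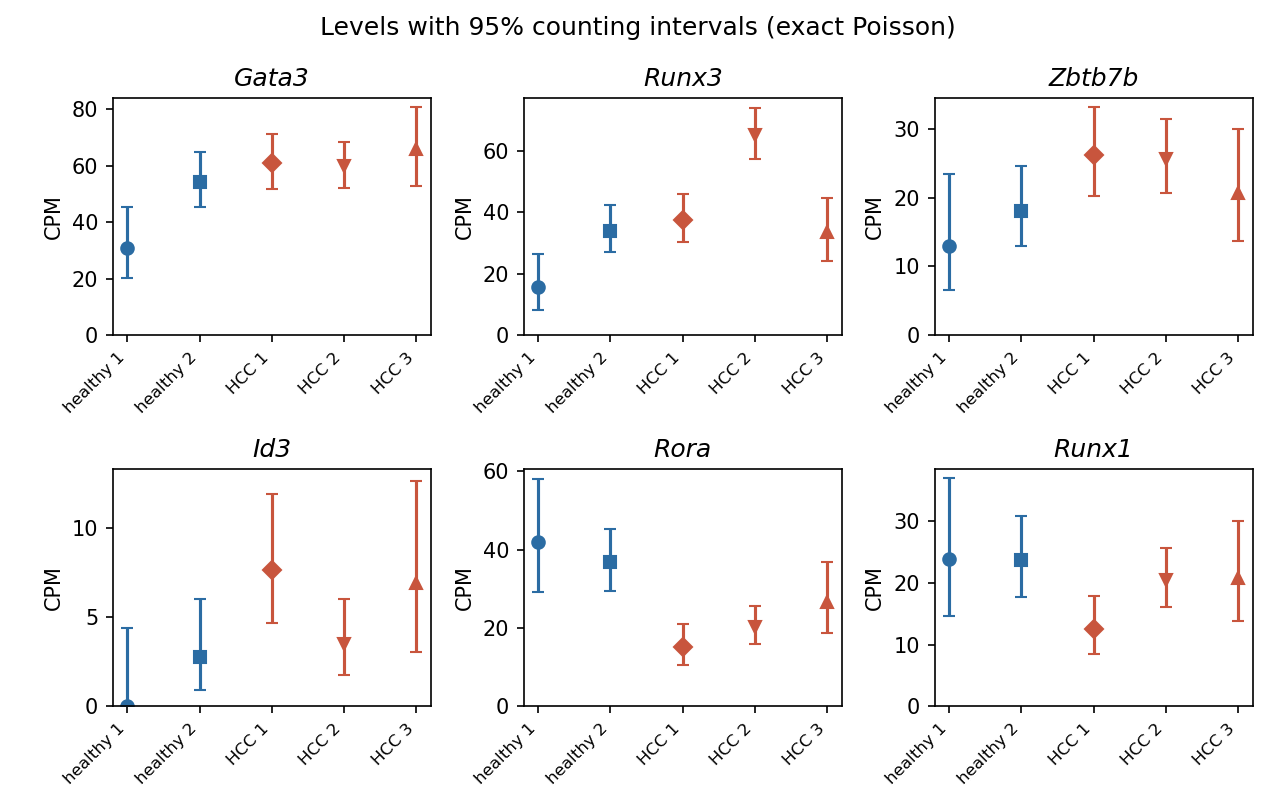
CPM of 6 factors in each library, with 95% exact Poisson intervals of the estimated reads, healthy libraries in blue and HCC libraries in red. Gata3, Zbtb7b and Id3 are higher in all 3 HCC libraries than in both healthy libraries, Rora and Runx1 are lower, Runx3 overlaps, and most intervals of the 2 groups overlap.

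Cbfb and Tle4 led the list of RUNX partners and relatives. Cbfb, the shared partner subunit that strengthens their DNA binding, stood at 18.0 and 116 CPM in the healthy libraries, against 38.1, 117 and 45.1 CPM in HCC. Tle4, a corepressor of the Groucho family, stood at 63.4 and 45.6 CPM against 74.6, 46.0 and 43.0 CPM. The groups overlapped in both genes, and Cbfb spread more within groups than between them. Of the 6 listed genes 4 were tested and 0 passed. Their median log2 fold change was 0.01.

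Zbtb16, whose product PLZF defines the lineage, was close to the limit of detection. It stood at 1.35 CPM in healthy 1 and 1.65 CPM in healthy 2, and at 1.09, 1.16 and 0 CPM across HCC 1 to 3, which is 1 read, 4 reads, 3 reads, 4 to 5 reads and 0 reads in turn. The counting interval of HCC 3, at 0, reached 2.73 CPM, and the counting intervals of all 5 libraries overlapped. The gene is annotated at chr9:48654297-48836222 (minus strand) in GENCODE M21, the annotation that supplied positions here. RefSeq places the 3′ end of Zbtb16 2500 bases further downstream (chr9:48651797-48654296), where GENCODE M21 holds no gene. A gap of at least 2000 bases occurs in 3.51% of 20807 protein-coding genes, and the other 9 factors have gaps of 64 bases (Tbx21) or less. The annotation behind the deposited values is not given in the sources used here, and the part of this gap in the low level was not tested.

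Zbtb7a and Zbtb4 led the listed BTB zinc finger relatives of PLZF, and both exceeded Zbtb16 in every library. Zbtb7a, which encodes LRF, stood at 45.4 and 37.3 CPM in the healthy libraries, against 35.9, 30.8 and 44.6 CPM in HCC, and Zbtb4 at 31.0 and 15.4 CPM against 21.2, 21.5 and 26.0 CPM. Of 7 listed relatives 5 were tested and 0 passed, and Zbtb32 was at 0 throughout. Among other factors of iNKT and T cell development, Ets1 stood at 102 and 179 CPM in the healthy libraries, against 127, 254 and 130 CPM in HCC. Ikzf1, which encodes Ikaros, stood at 118 and 116 CPM against 128, 180 and 161 CPM. Of the 14 listed factors 10 were tested and 0 passed in either direction. Their median log2 fold change was 0.27.

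No factor passed the test between HCC and healthy libraries. The test was limma on log2(value + 3) of the deposited scaling, over the 8647 genes with a value of at least 10 in at least 2 libraries, which understates the change of low genes. At the adjusted threshold of 0.05, 0 of these genes (0%) were called higher and 0 (0%) lower, and 342 (3.96%) were at an unadjusted p under 0.05. With limma-voom on the estimated reads 0 were called, and 276 were under 0.05 unadjusted. Of the 10 factors, 8 were tested, and Zbtb16 and Eomes were below the filter. Id3 passed it only through HCC libraries.

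Rora had the smallest p of the factors, with a log2 fold change of -1.05 (SE 0.49, 95% interval -2.10 to 0.01, unadjusted p = 0.051, adjusted p = 0.946). The log2 fold change of Id3 was 1.46 (SE 0.93, interval -0.55 to 3.47, adjusted p = 0.946), and that of Runx3 was 0.72 (SE 0.48, interval -0.32 to 1.76, adjusted p = 0.946). Their intervals include both no change and changes of several fold. Runx1 had -0.55 (SE 0.51), Gata3 0.43 (SE 0.41), Zbtb7b 0.45 (SE 0.50), Tbx21 -0.33 (SE 0.36) and Id2 0.33 (SE 0.39), all with adjusted p of 0.946 or 0.955. Tbx21 and Id2 had the narrowest intervals, from -1.10 to 0.44 and from -0.50 to 1.17. Scaling by table totals in place of the deposited scaling moved the median log2 fold change of all tested genes up by 0.13, and no tested factor changed sign, with Rora at -0.90 and Tbx21 at -0.18. With a pseudocount of 1 or 10 in place of 3, Id3 had a log2 fold change of 2.21 or 0.76.

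**Figure D3:**
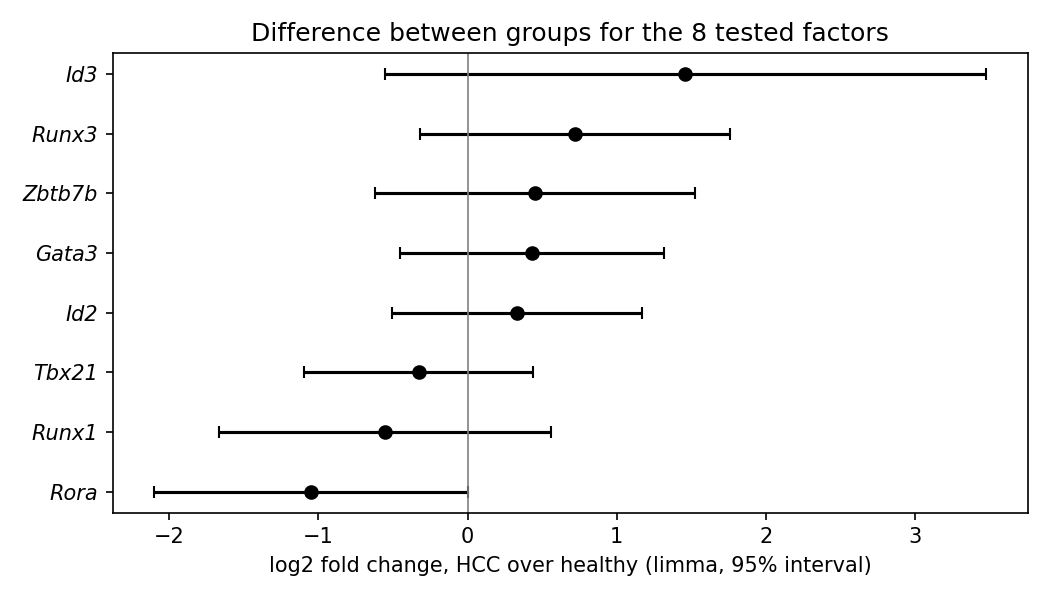
Log2 fold change of HCC over healthy for the 8 tested factors (points) with 95% intervals from limma (bars), on log2(deposited value + 3). Every interval includes 0, and that of Rora, from -2.10 to 0.01, reaches least beyond it.

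Leaving out a single library moved several of these values. Without healthy 1, the shallowest library, the log2 fold change of Id2 turned to -0.18, and those of Gata3, Runx3, Id3 and Tbx21 shrank to 0.18, 0.33, 0.75 and -0.12. Without healthy 2 they were 0.84 for Id2, 0.68 for Gata3, 1.11 for Runx3 and -0.54 for Tbx21. Either of these fits leaves a single healthy library and holds no spread between healthy libraries, so only the size of the change is given. Leaving out HCC 2 gave 0.47 for Runx3, and leaving out HCC 1 gave -0.50 for Tbx21 and -0.35 for Runx1, while without HCC 3 the value of Tbx21 was -0.20. Rora stayed between -1.27 and -0.82 whichever library was left out.

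By deposited values, 6 of the 8 tested factors showed no overlap between groups, with Gata3, Runx3, Zbtb7b and Id3 higher in all HCC libraries and Rora and Runx1 lower. Over all tested genes 10.3% were higher in this sense, 7.63% lower and 17.9% either. By CPM it was 5 of the 8, without Runx3, where 12.7% of all tested genes were higher, 5.53% lower and 18.2% either. The median log2 fold change of the 8 was 0.38, beside 0.05 over all genes. Id3 passed the filter only through HCC 1 and HCC 3, so the filter favoured its place among the higher factors and in the median. The factors were also selected with earlier results of these data known, so nothing particular to them is read from these counts or this median.

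Within-library ratios of the factors did not separate the groups at the threshold either. The ratio of Tbx21 to Gata3 was 11.9 and 6.19 in healthy 1 and 2 and 6.42, 5.18 and 3.79 in HCC 1, 2 and 3. HCC 1 lay between the healthy libraries, so the groups overlapped, and the difference of -0.78 on the log2 scale had an exact permutation p of 0.4. The differences for Runx3 to Zbtb7b (0.26) and Id2 to Id3 (-0.37, with healthy 1 at its bound) had exact permutation p values of 0.6 and 0.8. The value for Id2 to Id3 depends on that bound and was -1.17 with a bound of 1 read in place of 3. In all, 5 ratios were tested, Tbx21 to Eomes at its bounds among them, with adjusted p values of 0.667 to 0.8, and with 2 against 3 libraries no ratio could have reached 0.05.

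**Figure D4:**
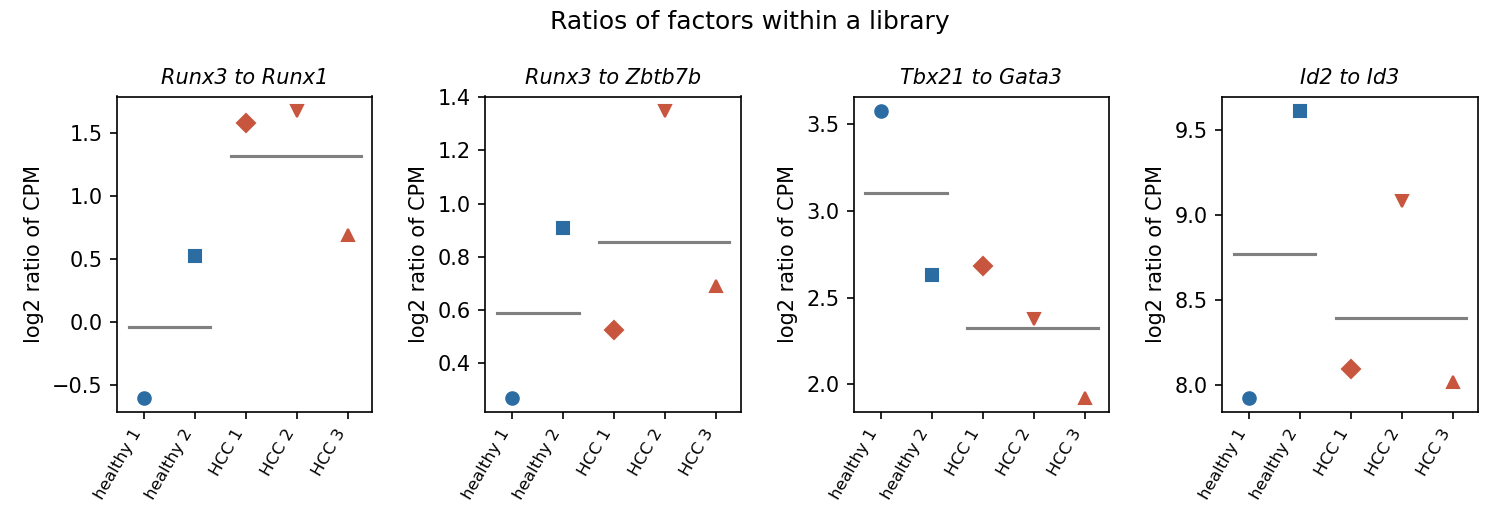
Log2 ratio of CPM between 2 factors in each library, with healthy libraries in blue, HCC libraries in red and grey lines at the group means. For Id2 to Id3 the healthy 1 point is a lower bound. The 3 HCC libraries lie above both healthy libraries for Runx3 to Runx1 and overlap with them in the other 3 ratios.

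Marker genes of other cell types were summed in the same libraries, and 0 genes of any marker list passed the test between groups. The sum of erythroid genes (5 of 5 detected) came to 2975 CPM in healthy 1 and 2787 CPM in healthy 2, and to 7390, 17083 and 15384 CPM across HCC 1 to 3. Hepatocyte genes (13 of 14 detected, Tat at 0) summed to 19.8 and 43.4 CPM against 41.9, 228 and 589 CPM. The part of either source in the differences of the factors, Rora included, was not tested. For Kupffer cells and macrophages the sum was 43.2 CPM in healthy 1 and 1.10 CPM in healthy 2, and 22.3, 0 and 5.84 CPM across HCC 1 to 3, with Vsig4 and Timd4 at 0 throughout, so no group was uniformly higher. The sums for NK and ILC1 cells (73.2 to 143 CPM), naive T cells (9.44 to 46.0 CPM), dendritic cells (5.84 to 27.4 CPM, 5 of 6 genes at 0) and stellate cells and fibroblasts (0 to 28.5 CPM) overlapped between groups. B and plasma cell genes, none of them at 0 throughout, summed to more in every HCC library (90.8 to 126 CPM) than in the healthy ones (64.7 and 82.3 CPM). Ighm made up most of the HCC sums, at 77.5 to 102 CPM against 31.0 and 63.7 CPM, whereas Ebf1, Cd79a and Ms4a1 had lower means in HCC (1.31, 2.13 and 1.31 CPM) than in healthy libraries (14.9, 3.69 and 2.35 CPM). Sums were also higher in every HCC library for liver endothelium genes (1.75 to 3.18 CPM against 0 and 0.549 CPM, with Stab2, Lyve1 and Oit3 at 0 throughout). Most of these HCC sums was a single gene, Pecam1, at 2.18, 1.75 and 2.12 CPM across HCC 1 to 3. The part of B, plasma or endothelial cells was not tested either. The neutrophil list summed to 319 to 587 CPM, nearly all of it Mmp9.

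Profiles over the 5 libraries were compared by the root mean square difference of centred log2(deposited value + 3). The genes most like the leading factors were sought among 1954 genes whose mean reached 50 CPM. For Tbx21 they were Gm44261 (0.047), BC031181 (0.083) and Rpl36a-ps1 (0.084), where the median gene had 0.459. For Id2 they were Ubb (0.037), which encodes ubiquitin, Tomm7 (0.042), a subunit of the mitochondrial import receptor, and Bub3 (0.054), a spindle checkpoint protein, where the median gene had 0.500. Ubb stood at 565 CPM in healthy 1 and 1480 CPM in healthy 2, and at 1460, 1288 and 1229 CPM across HCC 1 to 3. It thus had, like Id2, a low value in healthy 1 and similar values in the other 4 libraries.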

How the data were processed

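RNA of tetramer-sorted liver iNKT cells was made into 3' mRNA libraries (QuantSeq for Ion Torrent), per the labels' protocols. The submitters' processing notes list the build mm10 and, without role or version, HISAT2 and Bowtie2 (aligners), bcl2fastq, and DESeq, DESeq2, limma and edgeR. Which program counted reads, with which annotation and strandedness, is not given in the sources used here.

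The deposited signal per gene is whole-numbered but was treated as scaled and rounded counts, since low values fall on steps of 2.65, 0.759, 0.707, 0.440 and 1.39 (healthy 1 and 2, HCC 1 to 3) and median-of-ratios factors of the tables all lie at 1.024 to 1.035. The steps are clear in healthy 1, healthy 2 and HCC 3 and weaker in HCC 1 and HCC 2, so read numbers are approximate. A count model had been planned as the test and was not run, because the values are not raw counts. limma 3.58.1 (R 4.3.3, trended variance, Benjamini-Hochberg over 8647 genes, threshold 0.05) on log2(value + 3) took its place. That test, its pseudocount and its filter (at least 10 in 2 libraries) were set after the form of the values was seen.

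Symbols and positions came from GENCODE M21 by gene ID, with 260 of 55364 IDs unmatched. Promoter sequences came from RefSeq (GRCm38.p6), which held 9 of the 10 factors. Ratios were compared by exact permutation (scipy 1.17.1), values under 3 reads being set to 3. Scripts were tested on simulated data. The factors and gene lists were chosen with earlier results of these data known. Named genes were all 10 factors, the 2 highest by mean CPM of each pathway list, the nearest 3 profiles to Tbx21 and Id2, and listed markers at 0. Trav11, Traj18, Mmp9, Il12rb2, Klra8, Itga1, Ighm, Ebf1, Cd79a, Ms4a1 and pathway genes at 0 were named after their values were seen. A listed gene is not reported here. Replicates are described as separate mice, although the table names of HCC 2 and HCC 3 share a number. Alternatives covered scaling, filter, pseudocount, test, library weights, a replicate block, combined libraries and left-out libraries.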

Additional observations from a re-analysis of the deposited data

How the results depend on the processing

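Under 16 alternative fits, 3 of them (pseudocounts of 1 and 10, and library quality weights) chosen after seeing the data, 0 of the 10 factors were called. The sign of the log2 fold change held in every alternative in which a factor was tested for 7 of the 8 tested factors. The exception was Id2, at -0.18 without healthy 1 and up to 0.84 without healthy 2. The number of genes called was 0 with the exceptions of 443 without healthy 2 (297 higher, 146 lower) and 2 (2 higher, 0 lower) in the fit with a replicate block, so leaving out 1 library gave 0 to 443. The block fit rests on 4 libraries, since HCC 3 has no partner. Deviations from the group means correlated at 0.0015 between healthy 1 and HCC 1 and at 0.13 between healthy 2 and HCC 2. The 2 values are not independent, since the deviations of the 2 healthy libraries mirror each other. The labels name no shared litter or day, and these correlations cannot show whether same-numbered libraries share a batch. With at least 2 libraries in each group, the unadjusted p of Rora ranged from 0.038 (limma-voom) to 0.150 (limma without HCC 1). Leaving out 1 library gave log2 differences of 0.79 to 1.92 for Runx3 to Runx1, -1.25 to -0.30 for Tbx21 to Gata3, -1.22 to 0.47 for Id2 to Id3, -0.11 to 1.27 for Tbx21 to Eomes and -0.055 to 0.58 for Runx3 to Zbtb7b. The last 3 of these turned, without healthy 2, healthy 1 and healthy 1 in turn. For Tbx21 to Eomes, where Eomes was set to 3 reads in every library, these values follow library depth and say nothing of Eomes. As CPM of the protein-coding total, mean levels were 3039 CPM for Id2, 580 for Tbx21, 94.4 for Gata3, 63.9 for Runx3, 49.6 for Rora, 35.9 for Zbtb7b, 35.4 for Runx1 and 1.83 for Zbtb16, because that total is 53.5 to 60.7% of the whole. The planned fits by edgeR and by DESeq2, and TMM scaling, were not run, because the deposited values are not raw counts. Depth limits Zbtb16, Eomes and Id3 most, which rest on 12 to 13, 1 to 3 and 48 to 50 reads over all libraries.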
